A study of Homo sapiens with 6 samples.

Results

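Expression of 35 genes of glycolysis and pyruvate metabolism was compared between laminin coatings in H1, an established line of human embryonic stem cells. The genes are a named list of glucose and lactate transporters, glycolytic enzymes, the pyruvate dehydrogenase complex and its kinases, and enzymes of the adjoining pentose phosphate pathway. All 35 matched a gene ID among the 60499 in the deposited tables, and all 35 were among the 17608 genes that passed the filter on low counts. Wells were coated with laminin-521 alone (LN-521) or with laminin-521 plus laminin-221 (LN-521+LN-221, called the mixture here), and cells were kept in nutristem medium for 4 days. RNA was taken at confluence from 3 wells per coating. The wells are labelled as biological replicates of the 1 line, so p-values measure the spread between these wells.

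Total counts per library ran from 20606450 to 26836686. The stem cell label was checked against marker genes, in TPM (a level corrected for transcript length that sums to the same total in each library). The 6 pluripotency markers summed to 2393 to 2634 TPM on laminin-521 alone and to 2255 to 2437 TPM on the mixture, and 4 of them were called. POU5F1, NANOG and TDGF1, genes of the pluripotent state, were lower on the mixture (log2 fold changes -0.36, -0.73 and -0.65; edgeR adjusted p = 0.00366, 1.65e-04 and 8.23e-06), and LIN28A, an RNA-binding protein of the same state, was higher (0.23; edgeR adjusted p = 0.00737). NANOG and POU5F1 had estimated counts that were not whole in all 6 libraries. Over the 6 libraries, mesoderm and cardiac markers summed to 1.29 to 2.81 TPM, endoderm markers to 0.55 to 2.00 TPM and neural markers to 0.13 to 0.62 TPM. The 4 fibroblast markers summed to 85.7 to 99.4 TPM on laminin-521 alone and 71.3 to 88.4 TPM on the mixture. Nearly all of this came from COL1A1 and from THY1, which stem cells also carry, while COL3A1 had at most 1 count and DCN at most 9. THY1 was the 1 of the 4 that was called, lower on the mixture (log2 fold change -0.38 ± 0.08, SE; edgeR adjusted p = 0.0146), and the part of the pluripotency and fibroblast markers in the results below was not tested.

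Glycolysis breaks glucose down to pyruvate in the cytosol and yields ATP without oxygen. Pyruvate is then either reduced to lactate and exported, or carried into mitochondria, where the pyruvate dehydrogenase complex turns it into acetyl-CoA under the brake of the pyruvate dehydrogenase kinases. Primed human pluripotent cells are known for a high glycolytic flux, and many of these genes can be induced by the hypoxia-inducible factors.

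The pathway was expressed at high levels on both coatings. Together the 35 genes made up 1.36% to 1.43% of a library's TPM on laminin-521 alone and 1.33% to 1.39% on the mixture, so the ranges overlapped. GAPDH, which oxidises glyceraldehyde 3-phosphate, was the most abundant member, with a mean level of 4263 TPM over the 6 libraries and rank 15 among all gene IDs. The enolase gene ENO1 followed at 1165 TPM, TPI1 at 1054 TPM and the aldolase gene ALDOA at 1042 TPM. By group mean ALDOA stood above TPI1 on laminin-521 alone and below it on the mixture. LDHA (853 TPM), PGK1 (848 TPM), PKM (776 TPM) and LDHB (754 TPM) came next, and their ranges over the libraries overlapped. The phosphofructokinase genes of the committed step were far lower and close to each other, with PFKM at 53.5, PFKP at 52.5 and PFKL at 49.9 TPM. The lowest members were the kinase gene PDK2 at 12.8 TPM, PCK2 at 10.1 TPM and TIGAR at 3.25 TPM.

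**Figure D1:**
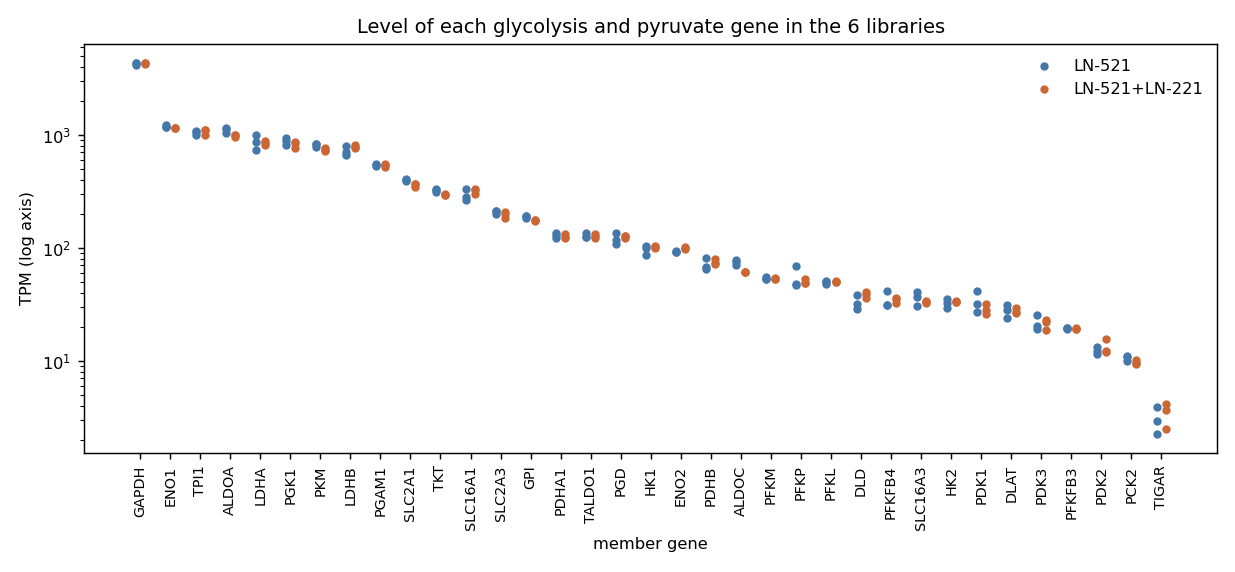
Level of each of the 35 genes in TPM (log axis) in the 3 libraries from laminin-521 alone (blue) and the 3 from the mixture (orange), ordered by the mean over all 6. GAPDH stands highest with a mean of 4263 TPM and TIGAR lowest with 3.25 TPM.

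Adding laminin-221 moved few of these genes past the test. At an adjusted p under 0.05 (edgeR quasi-likelihood test, Benjamini-Hochberg over all 17608 genes), 1 of the 35 was called, ALDOC, which fell. The same threshold was passed by 2.53% of all genes tested (1.14% lower and 1.40% higher), so the members' share was near the background. The median log2 difference of the members was -0.05, against -0.001 over all genes, and 26 of 35 lay below 0, where 50.3% of all genes did. Without adjustment, 9 members had a p under 0.05 on the lower side and 1 on the higher side, against 7.49% and 7.05% of all genes (14.5% in either direction). The wells of the coatings did not overlap in CPM (counts scaled to a common library total, with TMM factors) for 6 members that were lower and 2 that were higher, beside 9.68% and 10.2% of all genes (19.9% in all).

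Most members are abundant, so the 2026 genes with a mean of 100 CPM or more are a closer background. There 5.23% were called, 2.47% lower and 2.76% higher. An unadjusted p under 0.05 was found for 21.2%, 9.53% on the lower and 11.6% on the higher side. The wells did not overlap for 26.1%, 10.5% lower and 15.5% higher, and 43.9% of these genes lay below 0.

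The intervals bound how large the differences can be in these wells. The 95% confidence interval of the log2 difference lay inside ±0.5 for 34 of the 35 genes, all but TIGAR, and inside ±0.25 for 25. The number of members called changed when 1 library was left out, which also left fewer wells to test. The part of each was not tested. Without replicate 1 of laminin-521 alone, 8 members passed, all lower (ALDOA, ALDOC, ENO1, GPI, PKM, SLC2A1, SLC2A3 and TKT), beside 6.54% of all genes. Without replicate 2 of laminin-521 alone, 2 members passed (ALDOC and PDK1), beside 3.56% of all genes. Without replicate 3 of that coating, or replicate 1, 2 or 3 of the mixture, edgeR called 0 members, beside 1.13%, 1.61%, 1.10% and 1.09% of all genes.

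**Figure D2:**
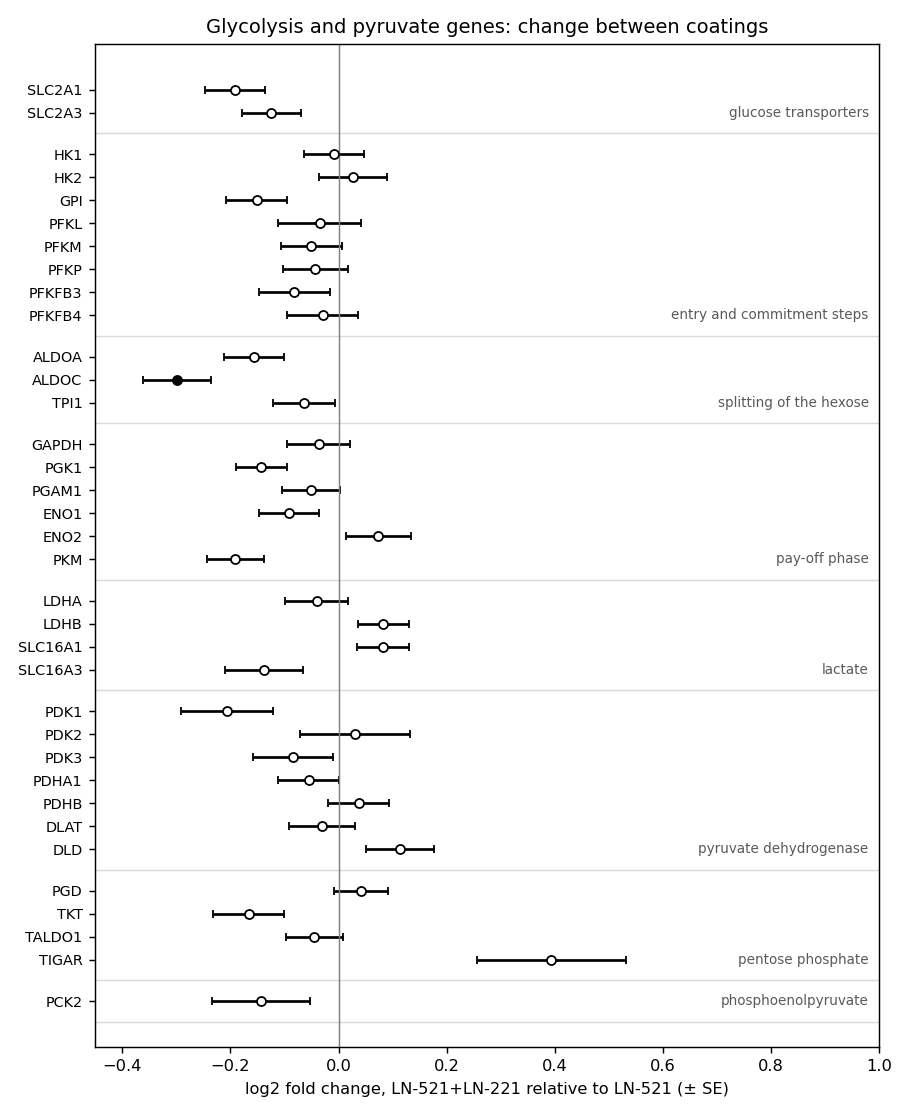
Log2 difference of the 35 genes, the mixture (LN-521+LN-221) relative to laminin-521 alone, with its standard error, grouped by role. The filled point is ALDOC at -0.30, the member with an adjusted p under 0.05, and the open points lie between -0.21 and 0.39.

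The summed CPM of the members spread as widely within a coating as between them. It was 23580, 25710 and 25220 in replicates 1, 2 and 3 of laminin-521 alone and 23000, 23950 and 24000 in those of the mixture. Replicate 1 of laminin-521 alone thus lay among the wells of the mixture, and it had the lowest CPM of its 3 wells for 21 of the 35 genes. The share of counts from 7SL RNA genes, the RNA of the signal recognition particle, was 4.64%, 6.13% and 5.44% in the same order of wells on laminin-521 alone and 4.53%, 4.79% and 5.24% on the mixture. Of the TPM, which weights these short RNAs more, they held 30.1%, 37.3% and 33.9% on laminin-521 alone and 31.1%, 32.0% and 32.9% on the mixture. The 6 libraries stood in the same order by their share of counts as by the members' sum, and the part of 7SL RNA in the results, TPM levels included, was not tested.

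ALDOC, ALDOA and TPI1 act where the sugar is split. ALDOC (ENSG00000109107, chromosome 17, 28573115 to 28577264, minus strand, hg38 with GENCODE 29) encodes the aldolase best known from brain. It was at 114, 126 and 130.2 CPM on laminin-521 alone and at 95.2, 103 and 103 CPM on the mixture. Every well of the mixture lay below every other well. The mean was 124 ± 8.43 against 101 ± 4.65 CPM (SD, n = 3 each). The log2 fold change was -0.30 ± 0.06 (SE; edgeR adjusted p = 0.0124). The call ended without replicate 3 of laminin-521 alone (edgeR adjusted p = 0.117), without replicate 1, 2 or 3 of the mixture (edgeR adjusted p = 0.120, 0.0772 and 0.0584) and with limma on log2(TPM + 1) (adjusted p = 0.358). The log2 fold change stayed between -0.35 and -0.26 in 18 alternatives, and 12 of them kept the call.

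ALDOA (ENSG00000149925), the main aldolase of most cells, was at 1163, 1329 and 1239.7 CPM on laminin-521 alone and at 1073, 1118 and 1157 CPM on the mixture. These wells did not overlap, and the log2 difference was -0.16 ± 0.06 (SE; edgeR adjusted p = 0.177). TPI1, which interconverts the products of the split, overlapped between coatings at a log2 difference of -0.06 ± 0.06 (SE; edgeR adjusted p = 0.677), and its sign turned on the TPM scale (0.03).

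The stretch before the start site of ALDOC is shown with those of 2 other members, chosen after their values were seen, because ACGTG is a common form of the core that hypoxia-inducible factors bind and these genes differ in how often they hold it. Each is the 250 bases before a RefSeq start site (GRCh38.p14), 5′ to 3′ along the gene, and capitals mark ACGTG on either strand, with the palindrome CACGTG as 1 place. ALDOC (chr17:28576896-28577145, minus strand) has 2 places, LDHA (chr11:18394313-18394562, plus strand, the first of its listed starts) has 3 (the window of its second listed start has 0) and SLC2A1 (chr1:42958869-42959118, minus strand) has 0.
ALDOC: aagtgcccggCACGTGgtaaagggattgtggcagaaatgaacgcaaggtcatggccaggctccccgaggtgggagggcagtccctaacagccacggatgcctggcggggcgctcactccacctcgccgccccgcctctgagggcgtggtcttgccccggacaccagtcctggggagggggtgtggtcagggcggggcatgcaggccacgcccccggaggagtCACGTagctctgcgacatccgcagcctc
LDHA: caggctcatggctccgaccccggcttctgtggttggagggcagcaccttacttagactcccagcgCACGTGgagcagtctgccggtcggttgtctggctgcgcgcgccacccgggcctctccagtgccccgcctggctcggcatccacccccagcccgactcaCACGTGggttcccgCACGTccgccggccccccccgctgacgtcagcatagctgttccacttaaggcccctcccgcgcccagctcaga
SLC2A1: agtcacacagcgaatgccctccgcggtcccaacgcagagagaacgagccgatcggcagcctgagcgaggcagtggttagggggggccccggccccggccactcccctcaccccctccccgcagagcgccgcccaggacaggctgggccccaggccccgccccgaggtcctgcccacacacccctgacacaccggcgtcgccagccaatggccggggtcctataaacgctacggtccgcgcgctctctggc

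The RefSeq table held windows of 250 bases before to 50 after a start for 33 members, 62 windows in all because some genes have several starts. ACGTG, searched on both strands, occurred in a window of 20 of the 33 members, in 24 of the 62 windows (38.7%), against 21.4% of all 35116 windows. CACGTG, which contains it, occurred in 12.9% against 7.26%, and GGGCGG, a GC-rich motif, in 67.7% against 44.95%. A match describes letters, not a bound site, and the 3 genes shown are no comparison of motif with change. The members' longest transcripts had a median GC content of 52.9%, against 48.6% for the genes tested.

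**Figure D3:**
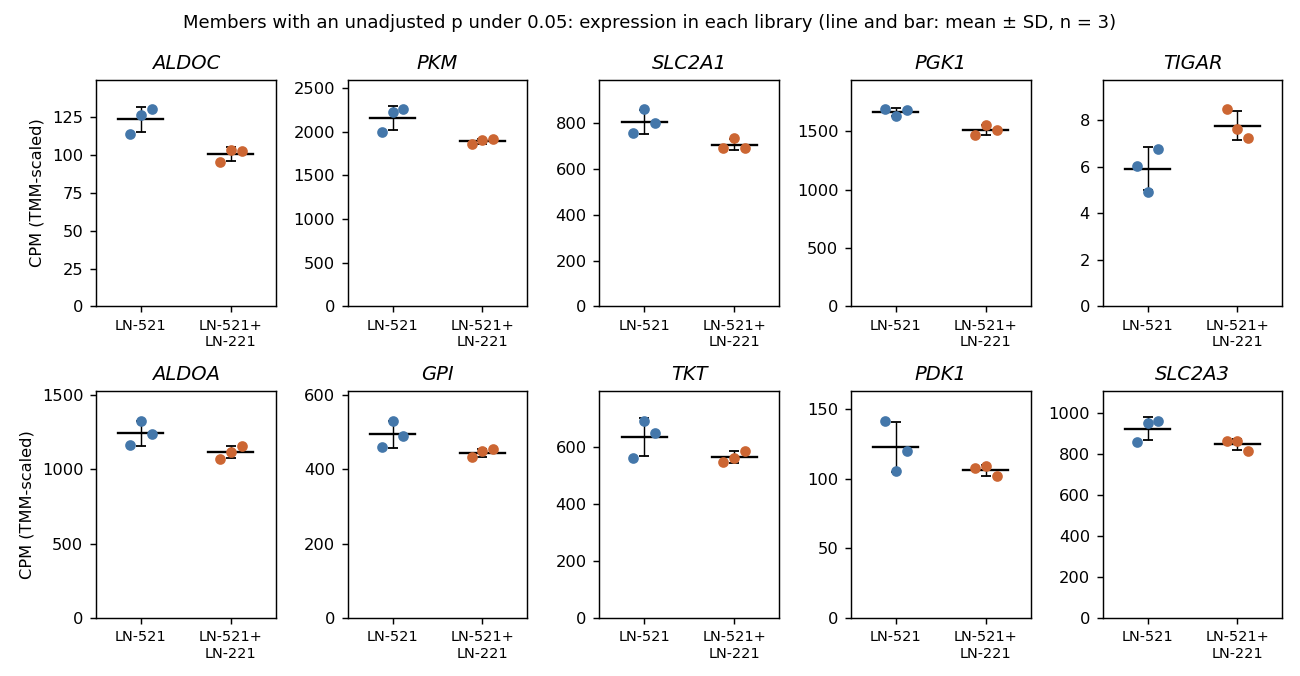
CPM in each library of the 10 members with an unadjusted p under 0.05, ordered by that p, with the mean and SD of the 3 wells per coating on axes that start at 0. ALDOC goes from a mean of 124 to 101 CPM, and TIGAR is the 1 of the 10 that is higher on the mixture.

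Glucose enters through SLC2A1 and SLC2A3, the transporters GLUT1 and GLUT3. SLC2A1 (ENSG00000117394) was at 754, 859 and 801 CPM on laminin-521 alone and at 692, 733 and 689.8 CPM on the mixture. The wells did not overlap, but the log2 difference of -0.19 ± 0.06 did not pass (SE; edgeR adjusted p = 0.0842). It passed in 5 of 18 alternatives, among them DESeq2 (adjusted p = 0.0201), the replicate block (edgeR adjusted p = 0.0361) and the fit without replicate 1 of laminin-521 alone (edgeR adjusted p = 0.00268), and the adjusted p ranged up to 0.670. SLC2A3 was at 859, 951 and 964 CPM against 863, 866 and 816 CPM. Replicate 1 of laminin-521 alone lay among the wells of the mixture, and the log2 difference was -0.12 ± 0.05 (SE; edgeR adjusted p = 0.296, and 0.0179 without that replicate).

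Hexokinases trap glucose in the cell by phosphorylating it. HK1 had a mean of 328 ± 19.9 CPM on laminin-521 alone and 326 ± 7.80 CPM on the mixture, and HK2 218 ± 10.99 and 221 ± 18.0 CPM (SD, n = 3 each). The 95% confidence interval of the log2 difference was -0.12 to 0.11 for HK1 and -0.11 to 0.16 for HK2, and both signs turned in some alternatives. GPI, which makes fructose 6-phosphate, was at 461, 531 and 490.3 CPM against 432, 449 and 454 CPM. Its wells did not overlap, with a log2 difference of -0.15 ± 0.06 (SE; edgeR adjusted p = 0.206, and 0.0137 without replicate 1 of laminin-521 alone).

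At the committed step, PFKL, PFKM and PFKP had log2 differences of -0.04, -0.05 and -0.04 (edgeR adjusted p = 0.885, 0.754 and 0.807), and the wells overlapped for each. PFKFB3 and PFKFB4 make and break fructose 2,6-bisphosphate, the activator of that step. Their log2 differences were -0.08 ± 0.07 and -0.03 ± 0.07 (SE; edgeR adjusted p = 0.622 and 0.888). Of the 8 genes of these entry and commitment steps, 0 were called by edgeR or DESeq2 and 1, GPI, had an unadjusted p under 0.05, near the 14.5% of all genes.

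In the pay-off phase, where ATP and NADH are made, edgeR called 0 of 6 genes and 2 (PKM and PGK1) had an unadjusted p under 0.05, beside 2.53% and 14.5% of all genes (5.23% and 21.2% of those at 100 CPM or more). PKM (ENSG00000067225), the pyruvate kinase gene of proliferating cells, was at 1994, 2219 and 2255 CPM on laminin-521 alone and at 1856, 1901 and 1909.6 CPM on the mixture. The wells did not overlap, and the log2 difference was -0.19 ± 0.05 (SE; edgeR adjusted p = 0.0676). PKM passed in 6 of 18 alternatives, among them DESeq2 (adjusted p = 0.0108), the replicate block (edgeR adjusted p = 0.0253) and the fit without replicate 1 of laminin-521 alone (edgeR adjusted p = 4.22e-04), and the adjusted p ranged up to 0.679. PGK1, the first ATP-yielding enzyme of the pathway, was at 1689, 1629.9 and 1686 CPM against 1468, 1552 and 1512 CPM. These wells did not overlap either, at a log2 difference of -0.14 ± 0.05 (SE; edgeR adjusted p = 0.144, and 0.0306 with DESeq2).

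GAPDH, often used as a reference gene, was at 4894, 5832 and 5605 CPM on laminin-521 alone and at 5153, 5328 and 5438 CPM on the mixture. The former wells spanned the latter. The log2 difference was -0.04, with a 95% confidence interval of -0.16 to 0.09 (edgeR adjusted p = 0.832), and its sign turned to 0.009 on the scale of log2(TPM + 1). PGAM1, the mutase of the next step but one, had a log2 difference of -0.05 ± 0.05 (SE; edgeR adjusted p = 0.732). The enolase genes ENO1 and ENO2 differed by -0.09 ± 0.06 and 0.07 ± 0.06 (SE; edgeR adjusted p = 0.488 and 0.629), and ENO1 passed without replicate 1 of laminin-521 alone (edgeR adjusted p = 0.04997).

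Lactate is made by lactate dehydrogenase and leaves through monocarboxylate carriers. Of these 4 genes, edgeR and DESeq2 each called 0, beside 2.53% and 3.31% of all genes. In edgeR 0 of the 4 had an unadjusted p under 0.05, beside 14.5% of all genes. With so few genes these counts are near the background. LDHA, whose enzyme favours lactate formation, was at 1746, 1511 and 1728 CPM on laminin-521 alone and at 1539, 1694 and 1612 CPM on the mixture. Its lowest and its highest well were both on laminin-521 alone, and the log2 difference was -0.04 ± 0.06 (SE; edgeR adjusted p = 0.816). LDHB was at 976, 974 and 941 CPM against 1011, 999 and 1053 CPM. Every well of the mixture lay above the others, at a log2 difference of 0.08 ± 0.05 (SE; edgeR adjusted p = 0.463). SLC16A1 (the carrier MCT1) had a mean of 1352 ± 42.6 against 1431 ± 39.2 CPM (SD, n = 3 each; edgeR adjusted p = 0.479). SLC16A3 (MCT4, an exporter of glycolytic cells) had 83.4 ± 8.90 against 75.8 ± 2.73 CPM (SD, n = 3 each; edgeR adjusted p = 0.412).

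In the pyruvate dehydrogenase complex, PDHA1 and PDHB (E1 subunits), DLAT (E2) and DLD (E3, shared with other dehydrogenases) had log2 differences between -0.06 and 0.11. DLD had the smallest adjusted p of these 4 (edgeR, 0.441), and it shares exon positions with LAMB1 on the opposite strand. Of the kinases that shut the complex off, PDK1 was at 142, 106 and 120.1 CPM on laminin-521 alone and at 108, 109 and 102 CPM on the mixture. Replicate 2 of laminin-521 alone lay among the wells of the mixture. The log2 difference of PDK1 was -0.21 ± 0.09 (SE; edgeR adjusted p = 0.273), -0.30 without that replicate (edgeR adjusted p = 0.00845) and -0.09 without replicate 1 (edgeR adjusted p = 0.404). PDK2 and PDK3 had log2 differences of 0.03 ± 0.10 and -0.08 ± 0.07 (SE; edgeR adjusted p = 0.929 and 0.668).

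The pentose phosphate pathway branches off glucose 6-phosphate and supplies NADPH and ribose. TKT, the transketolase that links it back to glycolysis, was at 563, 694 and 652 CPM against 548, 564 and 589 CPM. Replicate 1 of laminin-521 alone lay among the wells of the mixture, and the log2 difference was -0.17 ± 0.07 (SE; edgeR adjusted p = 0.237, and 0.00197 without that replicate). PGD and TALDO1, enzymes of the oxidative and the non-oxidative branch, had log2 differences of 0.04 and -0.05 (edgeR adjusted p = 0.778 and 0.764).

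TIGAR (ENSG00000078237), a p53-induced phosphatase that lowers fructose 2,6-bisphosphate, was the least abundant of the 35. It was at 6.05, 4.92 and 6.78 CPM on laminin-521 alone and at 8.48, 7.62 and 7.22 CPM on the mixture. All wells of the mixture lay higher, at a log2 difference of 0.39 ± 0.14 (SE; edgeR adjusted p = 0.174), and TIGAR passed in 0 of 18 alternatives. In TPM its wells overlapped (3.93, 2.25 and 2.95 against 4.18, 3.64 and 2.52), and the log2 difference was 0.14 on the scale of log2(TPM + 1) and 0.18 on that of log2(TPM + 0.1). It rests on 131 to 176 counts per library, and its exons overlap other genes on both strands. PCK2, which makes phosphoenolpyruvate in mitochondria, had a log2 difference of -0.14 ± 0.09 (SE; edgeR adjusted p = 0.512).

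Several steps are served by more than 1 gene, and the share of an isoenzyme in the summed TPM of the related genes among the 35 does not depend on library scaling. Other isoenzyme genes, such as ENO3, were left out of these sums. ENO2, the neuronal enolase, held 7.13%, 7.23% and 7.23% of the TPM of ENO1 and ENO2 on laminin-521 alone and 8.14%, 7.82% and 8.02% on the mixture. This was the 1 of 9 sets examined in which the wells of the coatings did not overlap, a share below the 19.9% of all genes whose CPM did not overlap. HK2 held 24.98% ± 0.265 of the TPM of HK1 and HK2 on laminin-521 alone and 24.8% ± 0.763 on the mixture (SD, n = 3 each). LDHA held 55.8%, 52.6% and 54.9% of the TPM of LDHA and LDHB on laminin-521 alone and 50.7%, 53.3% and 51.0% on the mixture, where the ranges crossed. ALDOC held 6.10%, 5.86% and 6.999% of the TPM of ALDOA and ALDOC against 5.79%, 5.95% and 5.85%, so its share overlapped although its CPM did not. These shares are descriptions, with no test.

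**Figure D4:**
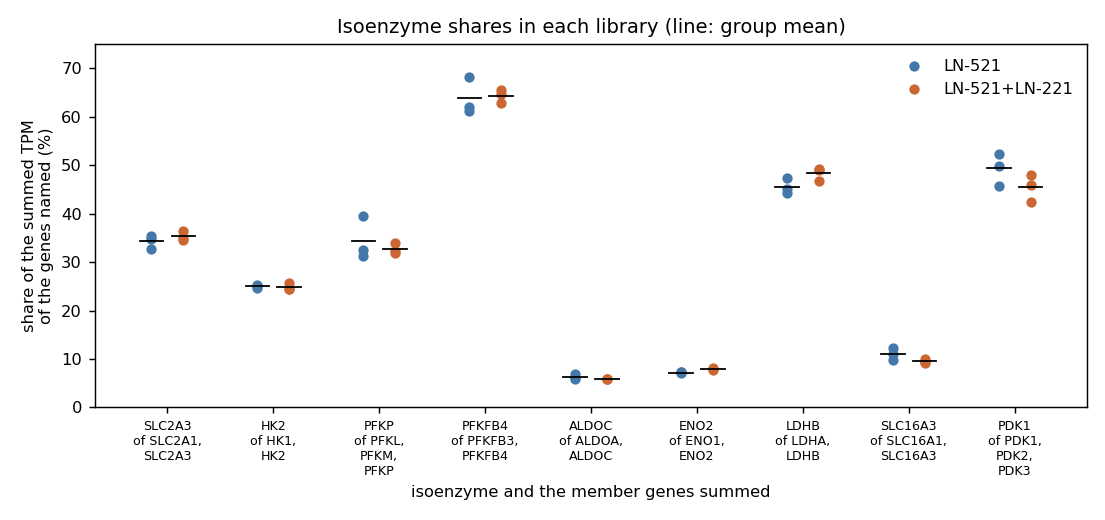
Share of 9 isoenzymes in the summed TPM of the member genes named under each (isoenzymes outside the 35, such as ENO3, left out) in each library from laminin-521 alone (blue) and from the mixture (orange), with group means as lines. The ENO2 shares of the coatings do not overlap (7.13% to 7.23% against 7.82% to 8.14%), whereas the other 8 do.

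Other lists place the members in their metabolic surroundings. Of 58 other genes of glucose and pyruvate metabolism, 41 were tested and 1 was called, G6PC3, a glucose 6-phosphatase of the endoplasmic reticulum. This share was near the 2.53% of all genes called. It was at 31.3, 36.3 and 35.8 CPM on laminin-521 alone and at 29.1, 26.2 and 28.0 CPM on the mixture, with no overlap. Its log2 fold change was -0.31 ± 0.08 (SE; edgeR adjusted p = 0.0458), and it passed in 10 of 17 alternatives, but not without replicate 2 or 3 of laminin-521 alone or any replicate of the mixture (edgeR adjusted p = 0.0725 to 0.290). The median of the 41 was -0.06, and 28 lay below 0, against -0.001 and 50.3% of all genes. Among 17 genes of the TCA cycle, which oxidises acetyl-CoA, edgeR and DESeq2 each called 0. In edgeR 2 had an unadjusted p under 0.05, both lower, near the 14.5% of all genes (7.49% lower). The median of the 17 was -0.06, and 13 lay below 0. SDHA, a subunit of succinate dehydrogenase, had the smallest p, with a log2 difference of -0.21 ± 0.06 (SE; edgeR adjusted p = 0.0867). Its estimated counts were not whole in any of the 6 libraries.

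The list of 22 genes known to respond to low oxygen, which holds none of the 35, had 3 called, all lower, beside 2.53% of all genes tested and 1.14% on the lower side. The list was chosen with earlier results of these data known. ADM, the peptide hormone adrenomedullin, was at 25.3, 25.5 and 25.4 CPM on laminin-521 alone and at 14.6, 17.8 and 14.9 CPM on the mixture, with the log2 fold change at -0.69 ± 0.09 (SE; edgeR adjusted p = 1.96e-04). AK4, a mitochondrial adenylate kinase, was at 99.5, 81.5 and 93.9 CPM against 65.8, 64.5 and 66.1 CPM, with the log2 fold change at -0.48 ± 0.07 (SE; edgeR adjusted p = 5.77e-04). EGLN3, an oxygen-sensing prolyl hydroxylase, was at 130.1, 115 and 113 CPM against 98.0, 104 and 98.5 CPM, with the log2 fold change at -0.25 ± 0.06 (SE; edgeR adjusted p = 0.0383). The wells of the coatings did not overlap for 5 of the 22 genes, all lower and these 3 among them. Over all genes the share was 19.9%, and 9.68% on the lower side. The other 19 were not called, and the median of the 22 was -0.04, with 13 below 0, against -0.001 and 50.3% of all genes. With limma on log2(TPM + 1), ADM, AK4 and EGLN3 had adjusted p of 0.0516, 0.327 and 0.777. EGLN3 also lost the call without replicate 3 of laminin-521 alone or any replicate of the mixture (edgeR adjusted p = 0.0755 to 0.202). AK4 had estimated counts that were not whole in all 6 libraries, so some of its reads had been divided with other genes.

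**Figure D5:**
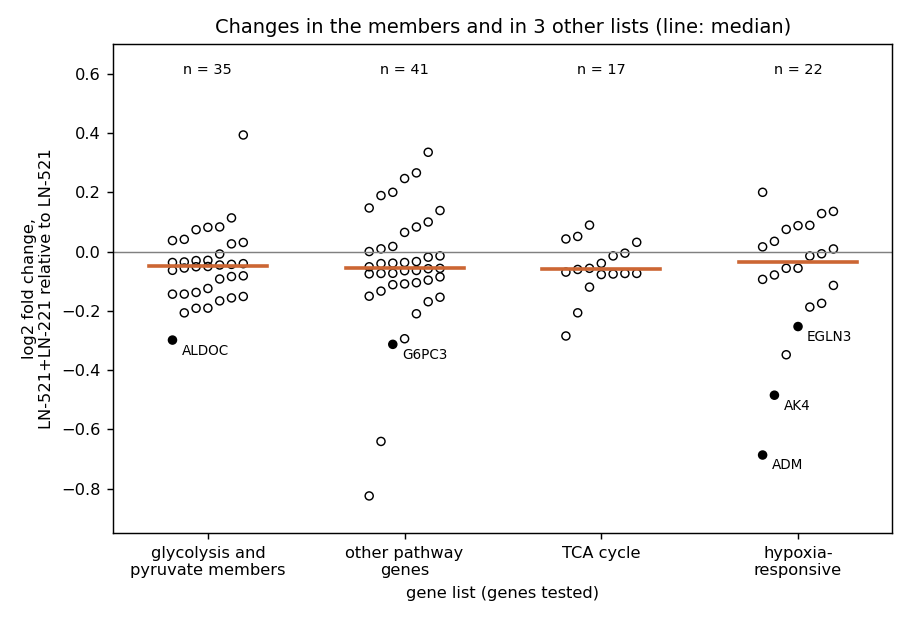
Log2 difference of each gene tested, the mixture (LN-521+LN-221) relative to laminin-521 alone, for the 35 members, 41 other pathway genes, 17 TCA cycle genes and 22 hypoxia-responsive genes, with each list's median as a line. Filled points, labelled by name, have an adjusted p under 0.05 and lie below 0.

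Read sharing touched several members. The table lists named pseudogenes for 15 of the 35 genes, 112 in all, of which 65 belong to GAPDH, and 71 had a count. They held at most 0.294% of the counts of a gene and its pseudogenes together, the value for TPI1. With pseudogene counts added to their genes, ALDOC, which has none, was again the 1 member called. Estimated counts were not whole in all 6 libraries for SLC2A3, HK2, GPI, TPI1, ENO1 and LDHA, whose values are uncertain to that extent. Genes on the opposite strand share exon positions with ALDOC (ENSG00000265168), TPI1 (SPSB2), ENO1 (ENO1-AS1), SLC16A3 (CSNK1D) and PDHA1 (MAP3K15), among others. The sources used here do not say if strand was used in counting. Genes on the same strand share exon positions with SLC2A1 (ENSG00000283973), GPI (ENSG00000266953), ALDOA (ENSG00000285043), PGK1 (ATP7A) and LDHB (ENSG00000285854), among others. There strand cannot separate the reads.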

How the data were processed

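RNA from 6 wells of H1 cells was sequenced after a stranded total RNA library preparation, per the labels' protocols. The submitters' processing notes list cutadapt, STAR 2.5.2b, RSEM 1.2.31 and the build hg38; the annotation and the use of strand are not given in the sources used here. The authors deposited estimated counts per gene, which need not be whole, and TPM values. Counts were rounded, genes were kept by filterByExpr (minimum count 10), TMM factors scaled the libraries and coatings were tested with edgeR 4.0.16 (R 4.3.3; robust quasi-likelihood) on all 6 libraries, with adjustment over all genes tested. SE is the size of the log2 fold change over the square root of F. Alternatives were DESeq2 1.42.0, limma 3.58.1 on log2(TPM + 1) or log2(TPM + 0.1) with a minimum of 1 TPM, other scalings and filters, pseudogene counts added, a replicate block and each library left out. Corrections for GC content and length were chosen after seeing the data. The edgeR fit was run on simulated data with the same spread for every gene and planted differences larger than any of the members'. Differences of the members' size were not simulated. All members are named; genes of the other lists are named where called, or by the smallest p where none was. The members and lists were chosen with earlier results of these data known.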

Additional observations from a re-analysis of the deposited data

How the results depend on the processing

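Counts of calls moved by over 1.5 times in several settings. Over all genes, against 446 (246 higher), 718 were called without a filter, 44 with log2(TPM + 1) (33 higher), 20 with log2(TPM + 0.1), 916 with the GC correction and 194 to 1179 with a library left out. Among the 35 members, against 1 (2.53% of all genes), there were 4 without a filter (ALDOC, PDK1, PKM and SLC2A1; 1.98% of all genes), 4 with DESeq2 (ALDOC, PGK1, PKM and SLC2A1; 3.31%), 0 with either TPM scale (0.305% and 0.139%), 3 with the replicate block (ALDOC, PKM and SLC2A1; 3.67%), 6 with the GC correction (those 3 with ALDOA, PDK1 and PGK1; 5.24%), 2 with the length correction (ALDOC and PKM; 2.74%) and 0 to 8 with a library left out (1.09% to 6.54%). Each member called in these settings was lower. The other pathway genes, against 1, gave 0 with either TPM scale, 2 with the GC correction and 0 to 2 with a library left out. The TCA cycle genes, against 0, gave 2 with the GC correction and 0 to 2 with a library left out. The hypoxia-responsive genes, against 3, gave 0 with either TPM scale and 2 to 3 with a library left out. The causes were not tested.

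With the replicate block, 646 genes were called. The deviations of same-numbered wells correlated across genes at 0.088, -0.046 and -0.031. Those of differently numbered wells correlated at -0.107 to 0.139. So few wells cannot show if same-numbered wells were handled together, and this was not tested. Signs turned for members near 0. With log2(TPM + 1) and log2(TPM + 0.1) the log2 differences were 0.071 and 0.071 for HK1, 0.018 and 0.018 for PFKL, 0.012 and 0.013 for PFKFB4, 0.031 and 0.031 for TPI1, 0.0090 and 0.0090 for GAPDH and 0.0012 and 0.0013 for TALDO1. With the GC correction they were 0.015 for HK1, 0.032 for PFKL, 0.0067 for PFKFB4 and 0.011 for GAPDH. With a library left out they ranged over -0.054 to 0.033 for HK1, -0.014 to 0.093 for HK2, -0.122 to 0.062 for PFKL, -0.103 to 0.00014 for PFKP, -0.090 to 0.019 for PFKFB4, -0.108 to 0.018 for GAPDH, -0.096 to 0.00080 for PGAM1, -0.030 to 0.126 for PDK2 and -0.0039 to 0.061 for PDHB. What turned these signs was not tested.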
